A study of Mus musculus with 22 samples.

Results

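Coding exons that lie away from promoters were taken as the stretches of protein-coding sequence (CDS) of curated RefSeq transcripts of the mm10 mouse genome, at CpG positions more than 2 kb from every curated transcription start site (TSS). Overlapping coding segments of a gene were merged, and an exon was kept where at least 3 autosomal positions in it were covered in all 22 samples. This gave 8771 exons of 5401 genes with 74618 positions, out of 74367 autosomal regions and 1115690 autosomal positions. The 2 strands of a CpG count as separate positions. Of the exons, 6581 were internal in their gene, 1537 were the last and 397 the first coding exon, 235 were the only coding exon of their gene, and 21 were given no place because genes overlapped there. Genes contributed up to 17 exons each, and 3519 genes contributed 1.

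DNA methylation was measured by ERRBS, a bisulfite method that reads CpG-rich parts of the genome cut out by a restriction enzyme. PyMT mice are FVB/N females heterozygous for a transgene that expresses the polyoma virus middle T antigen from the mouse mammary tumor virus (MMTV) promoter, which is active mainly in mammary epithelium. Bulk mammary tumors or glands were sampled at week 6 (hyperplasia, n = 2), week 8 (adenoma/mammary intraepithelial neoplasia, MIN, n = 3), week 10 (early carcinoma, n = 3) and week 12 (late carcinoma with lung metastasis, n = 2). Normal mammary glands of age-matched FVB females without the transgene served as controls, with 3 mice at each week. The authors had removed 2 outlier samples. A sample held 1314077 to 1435757 positions, and the positions of the coding exons were read 59.7 to 82.5 times on average.

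The bodies of transcribed mammalian genes are usually methylated at most CpGs. DNMT3B is drawn to them by the H3K36me3 mark that elongating RNA polymerase II leaves behind, while CpG-rich promoters are kept free of methylation. Coding exons near a gene's start can lie in a CpG island that spreads beyond the promoter, and those of developmental regulators are often bare and covered by Polycomb. Methylated CpGs in coding sequence are also frequent sites of C-to-T mutation.

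The exons with the largest differences among those with at least 5 positions and no overlap between the strains are shown first, because the later counts rest on such stretches. Each sequence is part of a coding exon of GRCm38.p6 (mm10), read 5′ to 3′ on the coding strand, with the covered CpGs in capitals. A lone capital at either end is a covered CpG that the end of the stretch divides. The 3 exons that were most strongly hypermethylated in PyMT were Shroom1 (chr11:53463710-53463909, plus strand), Epn3 (chr11:94491225-94491424, minus strand) and Runx1 (chr16:92605777-92605976, minus strand).
Shroom1: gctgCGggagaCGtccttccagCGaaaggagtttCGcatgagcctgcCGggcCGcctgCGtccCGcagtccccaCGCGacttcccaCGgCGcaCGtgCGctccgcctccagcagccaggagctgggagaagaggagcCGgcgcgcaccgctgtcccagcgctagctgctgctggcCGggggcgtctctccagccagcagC
Epn3: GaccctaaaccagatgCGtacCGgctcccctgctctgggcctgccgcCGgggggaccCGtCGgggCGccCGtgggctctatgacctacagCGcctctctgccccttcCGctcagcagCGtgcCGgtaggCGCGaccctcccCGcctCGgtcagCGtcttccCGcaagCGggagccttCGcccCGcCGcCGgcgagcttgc
Runx1: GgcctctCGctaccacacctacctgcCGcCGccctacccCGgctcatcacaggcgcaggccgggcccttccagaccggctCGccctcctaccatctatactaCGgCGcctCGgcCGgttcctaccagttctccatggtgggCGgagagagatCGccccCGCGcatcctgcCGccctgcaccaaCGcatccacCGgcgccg
These stretches held 22, 24 and 21 whole CpGs in 200 bases. The 3 exons that were most strongly hypomethylated were Axin1 (chr17:26188022-26188221, plus strand), Map7 (chr10:20233369-20233446, plus strand) and Snapc4 (chr2:26372731-26372825, minus strand).
Axin1: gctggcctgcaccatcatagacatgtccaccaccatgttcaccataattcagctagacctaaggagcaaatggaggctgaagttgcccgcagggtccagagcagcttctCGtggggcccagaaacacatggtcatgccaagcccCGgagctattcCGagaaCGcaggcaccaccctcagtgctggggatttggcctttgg
Map7: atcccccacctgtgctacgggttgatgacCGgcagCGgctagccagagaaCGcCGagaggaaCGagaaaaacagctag
Snapc4: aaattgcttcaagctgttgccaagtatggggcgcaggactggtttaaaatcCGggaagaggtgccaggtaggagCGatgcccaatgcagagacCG
These held 5, 6 and 4 CpGs in 200, 78 and 95 bases.

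Coding exons were less methylated in PyMT than in FVB samples at each of the 4 stages. The mean over the 8771 exons was 71.3% in the lowest, 71.5% in the median and 72.9% in the highest of the 10 PyMT samples. It was 73.8%, 74.6% and 75% in the 12 FVB samples, so the groups did not overlap. The means were 71.8% ± 0.52 (SD, n = 10) and 74.5% ± 0.38 (SD, n = 12). The within-week differences averaged to -2.78 points, with p = 2.5e-05 in a two-sided exact permutation test of the strain labels within weeks, which is the smallest p that its 40000 arrangements can give. The adjusted p over the 24 tests on single values was 7.5e-05. By stage the difference was -2.48 points at hyperplasia, -2.51 at adenoma/MIN, -3.00 at early carcinoma and -3.14 at late carcinoma. In bulk tissue, a change in the methylation of each cell and a change in the share of a cell type cannot be told apart.

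**Figure D1:**
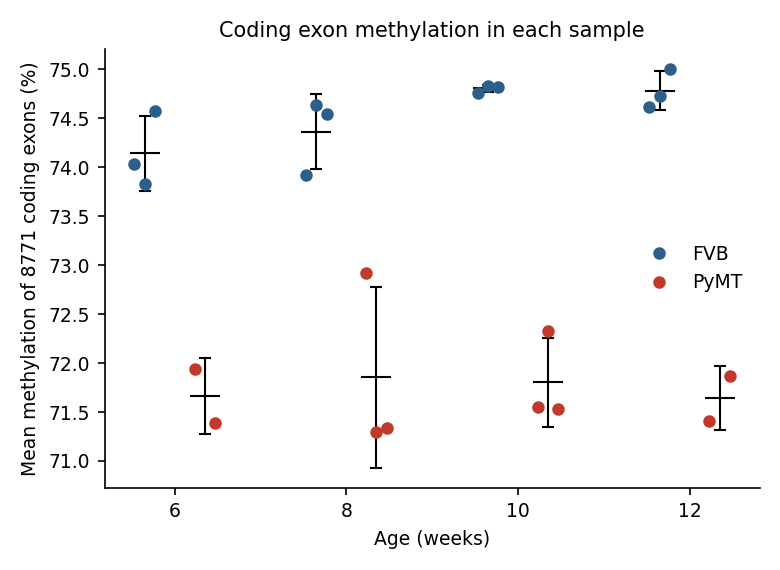
Mean methylation of the 8771 coding exons (y axis, percent; the axis does not start at 0) by age in weeks (x axis), with 1 point per sample, FVB in blue and PyMT in red; horizontal bars are means and error bars SDs of 2 or 3 samples. All PyMT samples lie between 71.3% and 72.9% and all FVB samples between 73.8% and 75%.

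Promoters of some cell type markers differed in the same comparison. The mean promoter methylation of 10 luminal epithelium markers was 12.2% to 17.2% in FVB and 5.07% to 8.14% in PyMT samples, and at 6 of the 10 all PyMT samples lay below all FVB samples. The promoter of Prlr, the prolactin receptor, was at 40.5% ± 6.5 (SD, n = 12) in FVB and 11% ± 5.4 (SD, n = 10) in PyMT. The 3 basal and myoepithelial markers with covered promoters went from a mean of 30.1% to 23.1%, and the 4 adipocyte markers from 54.4% to 45.9%. The 3 endothelial markers were at 33.9% and 34.0% and the 2 fibroblast markers at 4.58% and 6.23%. The part of cell composition in the exon changes was not tested.

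Coding exons changed less than the introns and more than the promoters of the same genes. In the 3679 genes with both kinds of region, exons went from 75.2% in FVB to 72.7% in PyMT and introns from 66.4% to 63.3%. The exon change of -2.57 points was smaller than the intron change of -3.14 points by 0.57 points (exact permutation p = 2.5e-05, adjusted p = 7.5e-05). In the 3904 genes with a covered promoter, exons changed by -2.23 points and promoters by -0.34 points, from 9.48% to 9.14%, and the difference of -1.89 points gave the same p. Over all regions of a class the change was -3.38 points in introns, -5.38 points in intergenic regions and -0.70 points in promoters.

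An exon was called changed where the limma adjusted p over all regions was under 0.05 and the mean difference was at least 10 points. Over the 4 stages, 551 exons (6.28%) were called higher in PyMT and 1406 (16.03%) lower, against 6.89% and 18.9% of all 74367 regions. The calls fell in 499 and 1156 genes, 1596 in all. The median difference over all coding exons was -0.60 points, with 3773 exons above and 4998 below 0. The median was 16 points among those called higher and -18.4 points among those called lower. All 10 PyMT samples lay above all 12 FVB samples in 316 exons (3.6%) and below them in 904 (10.3%), and this held for 3.94% and 11.2% of all regions. The shares of coding exons called were thus near or below those of the whole table in both directions. The spread between mice of a week was similar in the strains, with a median SD of 3.15 points in PyMT and 3.02 points in FVB. Of the controls, FVB week 8 replicate 2 lay furthest from the control median, by 3.88 points per exon on average against 2.24 to 3.46 points for the others, and without it 543 exons were called higher and 1396 lower.

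The calls grew in number with stage, in both directions. At hyperplasia 308 exons (3.51%) were called higher and 896 (10.2%) lower, with 3.47% and 11.1% of all regions. Without PyMT week 6 replicate 1, which leaves 1 hyperplasia sample that is assumed to vary like the other groups, these counts were 129 and 510. At adenoma/MIN 461 exons (5.26%) were called higher and 1137 (13.0%) lower, against a background of 5.34% and 15.5%. At early carcinoma the counts were 547 (6.24%) and 1398 (15.9%), and the background 6.99% and 18.6%. At late carcinoma they were 614 (7.0%) and 1528 (17.4%), and the background 6.97% and 20.4%. Group sizes differ between the stages, so counts of calls are not on one scale.

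**Figure D2:**
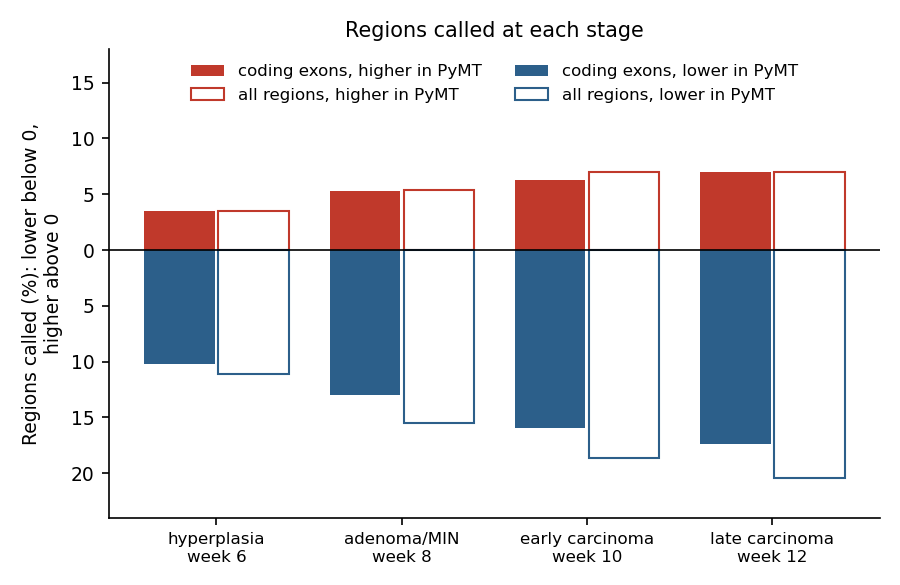
Percent of regions called at each stage (y axis; higher in PyMT above 0, lower in PyMT below 0) for the 8771 coding exons (filled bars) and all 74367 autosomal regions (open bars). Calls of coding exons rise from 3.51% and 10.2% at hyperplasia to 7.0% and 17.4% at late carcinoma.

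No exon was called in opposite directions at any pair of stages. An exon was called higher at all 4 stages in 195 cases and lower in 668, out of 840 and 1899 exons called in that direction at 1 or more stages. Of the exons called higher at hyperplasia, 78.6% were also called higher at late carcinoma, and these made up 39.4% of those called higher there. For lower calls the shares were 85.7% and 50.3%. The same counts and shares were not computed over all regions, so they are not read as particular to coding exons. The exons called higher over the 4 stages differed by 14.9, 17.4, 20.8 and 22.4 points on average at the successive stages, and those called lower by -19.1, -20.5, -24.7 and -25.3 points. These averages describe exons chosen from the same samples.

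At single positions, differentially methylated cytosines (DMCs) were more frequent in coding exons than over all 1140639 positions, most of which lie in promoters. A DMC had a q-value under 0.01 in a logistic regression of reads on strain and a difference of at least 10 points. At hyperplasia 3869 of 74618 exon positions (5.19%) were hyper-DMCs and 7791 (10.4%) hypo-DMCs, against 2.62% and 6.01% of all positions. At adenoma/MIN 5213 (6.99%) and 8639 (11.6%) were called, against 3.2% and 7.1%. At early carcinoma 6304 (8.45%) and 10065 (13.5%) were called, against 4.39% and 8.42%. At late carcinoma 6430 (8.62%) and 9954 (13.3%) were called, against 4.44% and 8.53%. Without PyMT week 6 replicate 1 there were 2323 hyper-DMCs at hyperplasia. This test takes reads rather than mice as its units.

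The exons named next were chosen for the size of their difference, with no overlap between the strains and at least 5 positions, so their values are a description. The exon with the largest loss by this rule was exon 5 of 10 of Axin1, which codes for the scaffold of the complex that degrades beta-catenin (chr17:26187704-26188221, plus strand). Its 5 positions, in the CpGs capitalised above, had methylation of 76.1% to 94.3% in FVB (median 88.0%) and 8.21% to 26.3% in PyMT (median 21.8%). The difference was -67.8 points, or -4.86 on the M scale (SE 0.23), where M is the log2 ratio of methylated to unmethylated percent (limma adjusted p = 1.27e-10). It was -60.2 points at hyperplasia and -74.2 points at late carcinoma. The 4 intronic positions of the gene fell by 50.5 points, whereas the other covered coding exon changed by 2.29 points and the promoter, at 2.55% in FVB, by -0.06 points. Among the stretches of Axin1 covered here, the loss lay in this exon and the intronic positions.

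Exon 4 of 19 of Map7, a microtubule-associated protein that recruits kinesin-1, lies at chr10:20233369-20233446 on the plus strand. It held 69.9% to 91.7% in FVB (median 86.8%) and 11.7% to 22.6% in PyMT (median 19.2%), a difference of -67.6 points (limma adjusted p = 1.67e-10). Of the 3 other covered exons of Map7, 1 was called lower and 1 higher, with differences of -30.1 to 15.6 points. Exon 12 of 21 of Snapc4, a subunit of the complex that activates snRNA genes, lies at chr2:26372731-26372825 on the minus strand. It went from a median of 81.3% in FVB (75.04% to 93%) to 15.5% in PyMT (11.3% to 34.2%), a difference of -65.8 points (limma adjusted p = 6.11e-10). Exon 2 of 26 of Tiam1, an activator of the GTPase Rac1 (chr16:89884678-89885125, minus strand), went from 88.0% (79.2% to 95.2%) to 27.1% (16.2% to 43.1%), a difference of -60.1 points (limma adjusted p = 1.12e-09). The other covered exon of Tiam1 was called higher, by 22.2 points.

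The next 5 exons with a loss fell by 58.5 to 59.7 points. They were exon 3 of 9 of Epcam, the epithelial cell adhesion molecule, the last exons of Fras1, a basement membrane protein, and of Ddx54, an RNA helicase, exon 15 of 23 of Plekhg4 and the first coding exon of Nr4a1, an immediate-early nuclear receptor. In Epcam the exon stood at 76.4% to 95.8% in FVB and 13.3% to 42.4% in PyMT. The promoter of Epcam was low in both strains, at 3.22% in FVB and 1.09% in PyMT. Its 6 intronic positions fell with the exon, from 76.3% to 27.6%. Intronic positions changed by -9.18 points in Fras1, -24.3 in Ddx54, -3.52 in Plekhg4 and 0.16 in Nr4a1. The last exon of Ddx54 and the hypermethylated exon 13 of 21 of Rasal1, a Ras GTPase-activating protein, lie 38950 bases apart on chromosome 5. They changed by -58.7 and 47.8 points, so opposite shifts stood side by side in the same samples.

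The exon with the largest gain by the same rule was the first of 7 coding exons of Shroom1, which codes for an actin-binding protein (chr11:53463255-53464193, plus strand). Its 18 positions stood at 8.97% to 23.3% in FVB (median 12.4%) and 63.6% to 81.9% in PyMT (median 69.4%). The difference was 58.2 points, 3.97 on the M scale (SE 0.19, limma adjusted p = 1.46e-10), and single positions gained 50.6 to 66.5 points. The gain was 55.9 points at hyperplasia and 62.4 points at late carcinoma. The promoter of Shroom1 was at 1.69% in FVB and changed by -0.96 points. A 2nd exon of the gene was also called higher, by 45.3 points.

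The last exon of Epn3, an endocytic adaptor (chr11:94491151-94491479, minus strand), went from a median of 13.2% in FVB (3.48% to 18.6%) to 68.5% in PyMT (57.9% to 77.9%), a difference of 55.6 points (limma adjusted p = 2.71e-09). All 34 of its positions gained at least 46.1 points. The last exon of Runx1, a transcription factor of blood formation (chr16:92605655-92606124, minus strand), went from 29.9% (13.4% to 43.9%) to 77.7% (64.1% to 88.0%), a difference of 47.9 points (limma adjusted p = 1.51e-08). The gain in Runx1 was 36.4 points at hyperplasia and 62.9 points at late carcinoma. Exon 13 of 21 of Rasal1 (chr5:120666243-120666435, plus strand) went from 19.7% (12.6% to 28.7%) to 70.6% (54.3% to 81.8%), a difference of 47.8 points (limma adjusted p = 6.71e-10). The last exon of Proser2 (chr2:6100336-6101360, minus strand) went from 13.9% (6.29% to 21.4%) to 64.1% (35.5% to 75.2%), a difference of 46.3 points (limma adjusted p = 2.66e-09). Its 39 positions gained between 0.08 and 65.4 points, so at least 1 of them changed little.

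The next 5 exons with a gain rose by 42.9 to 44.6 points. They were the last exons of Tnfrsf11a, the receptor RANK, of Lipe, hormone-sensitive lipase, and of Fam83h, and internal exons of Srcin1, an inhibitor of Src kinase, and Nr2f2, an orphan nuclear receptor. Of the 10 exons with the largest gains, 6 were the last coding exon of their gene, as were 2 of the 10 with the largest losses. Of all 8771 exons, 1537 were last ones, and 7.29% of these were called higher, against 6.02% of internal exons. Last exons had a median of 7 positions and internal ones 5, so the limit of 5 positions bears on this count. The covered promoters of the 10 genes with the largest gains had means of 0.57% to 18.7% in FVB. They changed by -3.39 to 2.54 points, with fewer than 3 promoter positions for Lipe.

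**Figure D3:**
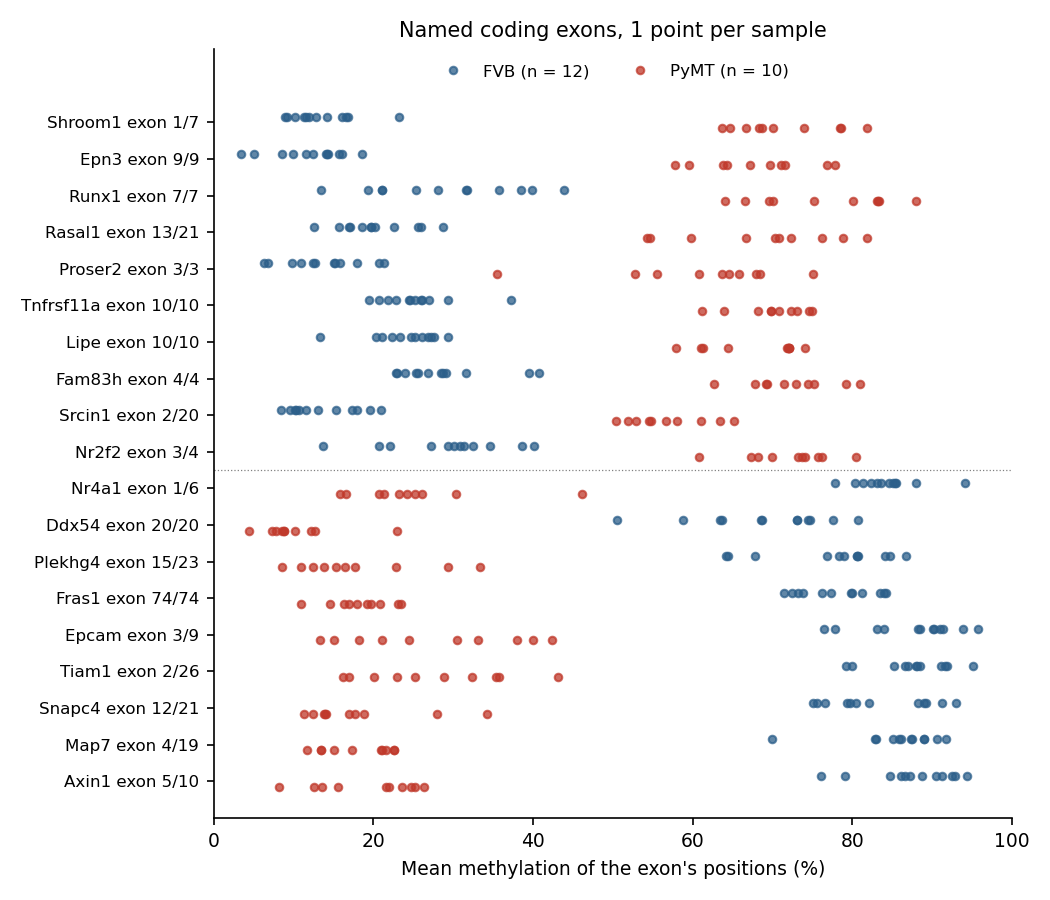
Methylation of the 10 coding exons with the largest gains (above the dotted line) and 9 of the 10 with the largest losses (below it), in percent on the x axis, with 1 point per sample, FVB in blue and PyMT in red; labels give the exon number out of the coding exons of the gene. No PyMT point overlaps the FVB points of the same exon, and the PyMT sample nearest to the controls is 1 of Proser2 at 35.5%, with the highest control at 21.4%.

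Called exons of a gene mostly shared a direction, but not in all genes. Among the 1882 genes with at least 2 covered exons, 254 had at least 2 called exons. In 33 of these all called exons were higher, in 162 all were lower, and in 59 there were both. Over all genes 551 exons were called higher and 1406 lower. Whether exons of a gene agreed more or less often than exons of different genes was not tested. Genes with many covered exons included Lrp1 with 16, and Hspg2 and Ttn with 15 each. In Lrp1, an endocytic receptor, and Hspg2, the basement membrane proteoglycan perlecan, 5 and 6 were called lower and 0 higher. In Ttn, the giant protein titin of muscle, 1 was called lower and 0 higher.

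The change depended on how methylated an exon was in the controls. Exons were sorted by their mean in the 4 FVB samples with replicate number 3, and the 10 PyMT samples were compared with the 8 other FVB samples, so that the mice that sorted the exons were not those compared. Over 80% methylated were 5469 exons (62.4%), between 20% and 80% were 2564 (29.2%) and under 20% were 738 (8.41%). Exons of intermediate level held 61.2% ± 0.73 (SD, n = 8) in FVB and 57.2% ± 0.88 (SD, n = 10) in PyMT, a difference of -3.99 points. Exons of high level held 89.9% ± 0.31 and 87.3% ± 0.54, a difference of -2.56 points, and exons of low level 5.73% ± 0.25 and 6.80% ± 0.84, a difference of 1.04 points. These are differences of means. The median exon differed by -1.66 points in the intermediate, -0.66 in the high and 0.05 in the low class, so the typical exon of each class changed less. The exact permutation p was 0.000278 for the intermediate and high classes, the smallest that 3600 arrangements can give, and 0.00111 for the low class (adjusted p = 0.000392, 0.000392 and 0.00133).

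Exons of intermediate level fell by 1.42 points more than those of high level (exact permutation p = 0.000833, adjusted p = 0.00111). This gap was -1.69, -1.52 and -1.91 points at the earlier stages and -0.57 points at late carcinoma. Exons of low level differed by -0.10 points at hyperplasia and by 1.09, 1.45 and 1.73 points at the later stages. The intermediate class also moved in both directions more than the others. At least 10 points were gained by 492 of its exons (19.2%) and lost by 801 (31.2%), whereas in the high class 31 (0.57%) gained and 573 (10.5%) lost that much. In the low class 45 (6.10%) gained and 17 (2.30%) lost at least 10 points. An exon near 100% has little room to gain and one near 0 little room to lose.

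**Figure D4:**
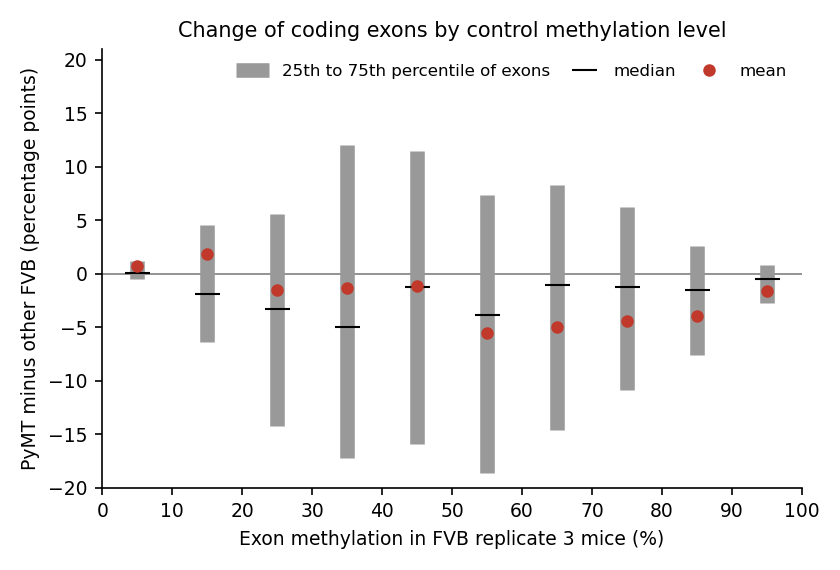
Difference between PyMT and the 8 other FVB samples in percentage points (y axis) for coding exons binned by their methylation in the FVB replicate 3 mice (x axis, percent); grey bars span the 25th to 75th percentile of exons, black dashes are medians and red points means. The spread is widest between 30% and 60%, and the mean is above 0 only in the bins under 20%.

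Exon position in the gene went with both the level and the change. Internal coding exons held 76.9% ± 0.43 (SD, n = 12) in FVB, against 67.0% ± 0.30 in first, 67.6% ± 0.32 in last and 67.1% ± 0.32 in single coding exons. Only 5.65% of internal exons were of low level, against 17.1% of the first, 16.5% of the last and 18.3% of the single ones. PyMT differed from FVB by -3.12 points in internal, -2.07 in first, -1.53 in last and -3.09 in single coding exons. These and the following differences are of means. The median exon differed by -0.84 points among internal, -0.10 among first, -0.10 among last and -0.67 among single ones. Last exons fell by 1.60 points less than internal ones (exact permutation p = 2.5e-05, adjusted p = 7.5e-05), and first exons by 1.05 points less (p = 5e-05, adjusted p = 0.000133). Single exons differed from internal ones by 0.03 points (exact permutation p = 0.706), and by 0.45 points (p = 0.00963) where exons needed at least 5 positions. The gap between last and internal exons widened from 0.91 points at hyperplasia to 1.43, 1.84 and 2.22 points at the later stages.

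Within exons of intermediate control level, last exons fell by 3.18 points less than internal ones and first exons by 3.31 points less. Within the high class last exons fell by 0.46 points less but first exons fell by 1.14 points more. The order of the mean changes in these first and internal exons thus turned with the level. Within the low class last exons gained 0.45 points and first exons 1.51 points more than internal ones. The exact permutation p was 0.000278 for these gaps (adjusted p = 0.000392), and 0.00722 for last exons of low level (adjusted p = 0.00788). First exons numbered 116 in the intermediate, 213 in the high and 68 in the low class, and internal ones 1961, 4248 and 372. The test permutes mice and does not measure the spread between exons. Among last exons 112 of 1537 (7.29%) were called higher and 196 (12.8%) lower, and among internal exons 396 of 6581 (6.02%) and 1118 (17.0%). Among first exons the calls were 27 of 397 (6.80%) and 57 (14.4%), and among single exons 13 of 235 (5.53%) and 35 (14.9%). The called exon with the largest change was the last one of Surf6, a nucleolar protein of ribosome assembly, at -69.2 points with 4 positions (limma adjusted p = 3.62e-09). Among single coding exons it was that of Tob1, an antiproliferative protein, at -50.8 points (limma adjusted p = 7.97e-10). Among first coding exons it was that of Nr4a1 at -58.5 points (limma adjusted p = 6.00e-10), and among internal ones that of Axin1.

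**Figure D5:**
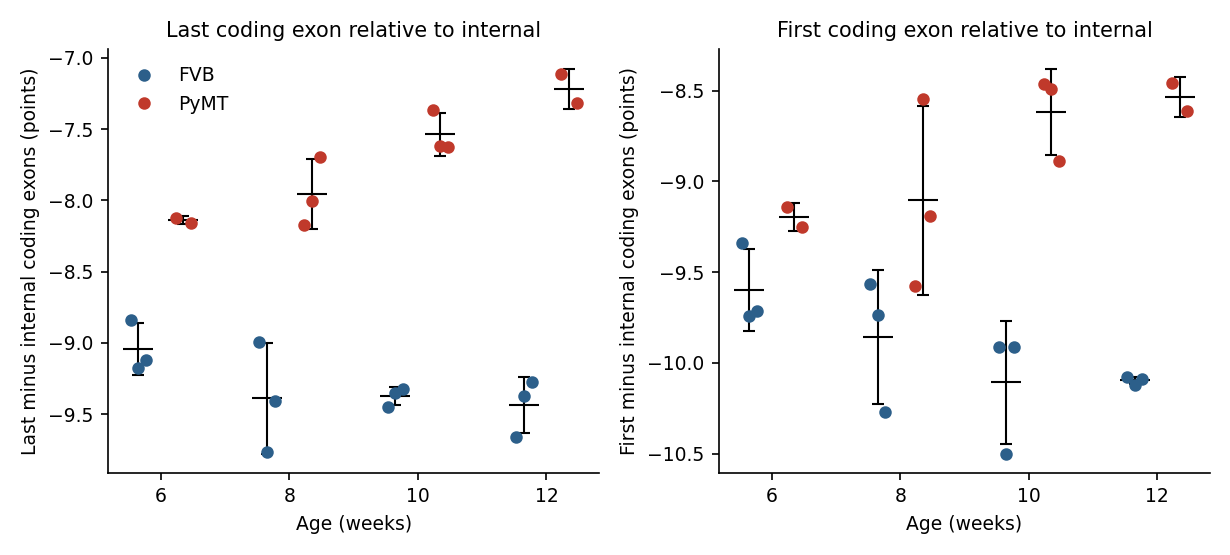
Mean methylation of last minus internal (left) and first minus internal (right) coding exons in each sample, in percentage points (y axes, which differ and do not include 0), by age in weeks (x axis), FVB in blue and PyMT in red; horizontal bars are means and error bars SDs. All samples lie below 0, and on the left the PyMT samples (-8.18 to -7.12) are all above the FVB samples (-9.77 to -8.84).

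Exons called higher and lower differed in CpG content, and in a starting level that the calls partly fix. The median FVB methylation was 59.7% in exons called higher, 76.2% in those called lower and 88.6% in those not called. The same FVB samples set the calls, and an exon near 100% cannot gain 10 points. The order of these medians is therefore not a separate result. The ratio of observed to expected CpGs had a median of 0.55, 0.48 and 0.54 in the same order. In the 257 exons with a ratio of at most 0.25, 25.7% were called lower and 3.11% higher. In the 1322 exons with a ratio over 0.75 the shares were 9.91% and 7.11%. The FVB mean was 80.3% in the former and 55.7% in the latter, so CpG content and control level differed together. The change also grew with the distance from a TSS. It was -2.15 points in 1875 exons at 2 to 5 kb, with 63.7% in FVB, and -4.39 points in 389 exons at more than 100 kb, with 78.3% in FVB. Median GC content was 59.1%, 58.5% and 58.5%, and median coverage was 69.4, 70.5 and 68.6 reads in exons called higher, lower and not called. Deeper exons, with over 100 reads, were called lower in 18.9% of 948 cases and those with at most 50 reads in 14.95% of 2053, while the FVB mean was 65.2% and 76.0%.

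The place of the CpG in the codon made little difference. In the 4009 exons with CpGs at all 3 places, a C at the first base of a codon held 71.4% in FVB, one at the second base 70.5% and one at the third base 69.7%. The changes in PyMT were -2.32, -2.34 and -2.42 points. In the 6121 exons with CpGs at bases 1 and 3 of the codon, base 3 fell by 0.12 points more (exact permutation p = 0.000975, adjusted p = 0.00123).

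Gene lists of ion channels and of atypical and giant cadherins were examined next. Counts are read against the 6.28% of all coding exons called higher, the 16.03% called lower and the median of -0.60 points, with no test of a list. Of 140 exons of voltage-gated channels and glutamate receptors, 3 were called higher and 37 (26.4%) lower, with a median difference of -5.03 points. Exon 3 of 52 of Cacna1c, an L-type calcium channel, changed by -49.7 points, and exon 8 of 36 of Cacna1i, a T-type calcium channel, by -41.1 points. Of 41 exons of atypical and giant cadherins, 0 were called higher and 13 (31.7%) lower, with a median of -3.55 points. Exons 7 and 1 of Celsr2, a planar cell polarity cadherin, changed by -48.0 and -40.9 points.

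Collagen genes had calls in both directions, with 11 of 78 exons (14.1%) higher and 21 (26.9%) lower and a median of -4.34 points. Col26a1 and Col16a1 had the largest changes, -48.1 points in exon 2 of 13 and -39.7 points in exon 7 of 69. Exons of Col1a1, the fibrillar collagen of fibroblasts, gained instead, by 20.5 points in exon 14 of 51 and 16.3 points in exon 21. Of 65 exons of laminins and integrins, 5 (7.69%) were called higher and 9 (13.9%) lower. Exon 32 of 39 of Itgb4, the hemidesmosome integrin of basal epithelium, rose by 36.2 points, and exon 5 of 15 of Itgb2, the leukocyte integrin, fell by 39.6 points.

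Among exons of the Wnt pathway 4 of 63 (6.35%) were called higher and 10 (15.9%) lower, near the shares of all coding exons. The higher calls lay in the Frizzled receptor genes Fzd1, Fzd4, Fzd5 and Fzd8. The lower calls lay among others in another Frizzled receptor gene, Fzd7, and in Axin1, Lrp5 and Rnf43. The last exon of Fzd4 rose by 45.0 points from a median of 41.5% in FVB, where the samples ranged from 10.1% to 71.1% over 3 positions. Of 23 exons of Notch and ErbB receptors and ligands, 1 (4.35%) was called higher, in Erbb3, and 5 (21.7%) lower. Exon 11 of 33 of Notch3 changed by -28.9 points and exon 6 of 30 of Notch4 by -20.6 points. Of 28 exons of tumor suppressors, 4 (14.3%) were called higher (in Brca2, Lats2, Nf2 and Ptch1) and 3 (10.7%) lower (in Axin1, Stk11 and Tsc1). Exon 7 of 10 of Stk11, the kinase LKB1, changed by -35.6 points over 3 positions.

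Exons of developmental regulators were grouped in a pair of lists. The 89 exons of homeobox genes had a mean of 17.3% in FVB. Of these, 5 (5.62%) were called higher and 11 (12.4%) lower, with a median of -0.23 points. Exon 4 of 5 of Irx4 rose by 42.2 points, and the last exon of Hlx fell by 30.9 points. Of 55 exons of forkhead, Sox, T-box and GATA genes, with 45.7% in FVB, 3 (5.46%) were called higher and 10 (18.2%) lower. Exon 4 of 5 of Gata2 rose by 33.8 points while another exon of Gata2 fell by 25.7 points. Exon 3 of 5 of Gata3, the luminal regulator, went from 41.4% to 77.2% in FVB to 5.71% to 24.6% in PyMT, a change of -44.2 points over 4 positions. The promoter of Gata3 changed by -10.3 points and its 5 intronic positions by -41.3 points.

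Lists of the methylation and chromatin machinery held few exons, so their shares carry little weight. Of 12 exons of DNA methylation and H3K36 methylation enzymes, 1 (8.33%) was called higher, exon 7 of 11 of Tet3 at 11.5 points, and 1 (8.33%) lower, exon 4 of 22 of the H3K36 methyltransferase Nsd1 at -27.7 points. Of 24 exons of Polycomb and Trithorax subunits, exon 4 of 5 of Cbx2 rose by 33.1 points and exon 33 of 54 of Kmt2d fell by 41.0 points. Of 138 exons of zinc finger protein genes, 9 were called higher and 7 (5.07%) lower, with a median of 0.52 points. The first coding exon of Zfp445 and the last of Zfp786 nevertheless changed by -46.0 and -44.9 points. Of the cell type genes, 11 exons of luminal and basal epithelium had 4 called lower (in Epcam, Gata3 and Krt19) and 0 higher, and 15 exons of adipocyte genes had 2 called higher, both in Lipe. The 8 exons of leukocyte genes had 2 called lower. They lie in Laptm5, at -25.5 points, and in Ptprc, at -10.6 points (limma adjusted p = 0.0217). The limma adjusted p of Ptprc was 0.0851 and 0.0930 without PyMT week 6 replicate 1 or PyMT week 12 replicate 1. The 14 exons of endothelial and fibroblast genes had 6 called higher and 0 lower. Of these 6, 5 lie in Col1a1, which is also counted among the collagens, and 1 in Kdr.

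The mean level of coding exons did not separate the carcinoma stages from the earlier ones in PyMT. It was 71.7% ± 0.37 (SD, n = 5) at weeks 10 and 12 and 71.8% ± 0.69 (SD, n = 5) at weeks 6 and 8 (exact permutation p = 0.952). In FVB it was 74.8% ± 0.13 (SD, n = 6) and 74.3% ± 0.37 (SD, n = 6), a difference of 0.54 points (exact permutation p = 0.00433, adjusted p = 0.00495), and whether the strains differ in this was not tested. The contrast of the change at the carcinoma stages with that at the earlier stages called 2 of 8771 exons higher and 0 lower by limma. At an unadjusted limma p under 0.05 there were 441 and 552. Other classes also had few calls, with 3 higher and 0 lower of 17630 promoters. There were 0 and 1 of 21255 introns and 1 and 4 of 24981 intergenic regions. At the unadjusted limit these classes held 1137 and 441, 948 and 1580, and 938 and 2462. The low number of calls is thus not particular to coding exons. Both called exons were chosen for this after their values were seen. Exon 14 of 16 of Psd4, an activator of ARF6, stood 13.6 and 12.8 points above FVB at weeks 6 and 8 and 34.3 and 40.1 points above at weeks 10 and 12, a contrast of 24.0 points (limma adjusted p = 0.0382). Exon 9 of 14 of Arhgef4 stood 1.45 and 3.35 points above and then 15.9 and 25.9 points above, a contrast of 18.5 points (limma adjusted p = 0.0488). By edgeR 0 exons were called in this contrast in either direction, and leaving out single samples gave 0 to 2 higher.

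The rule that chose the exons has 2 limits, and the mean change had the same sign on both sides of each. The 1754 exons with 3 positions held 79.5% in FVB and changed by -3.57 points, and the 2135 exons with 2 positions, which were left out, held 77.9% and changed by -4.26 points. The 8443 coding positions at 2 to 3 kb from a TSS held 38.6% in FVB and changed by -1.26 points, and the 16366 at 1 to 2 kb held 22.9% and changed by -0.18 points. Levels of coding sequence thus still rose with distance at the 2 kb limit.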

How the data were processed

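DNA methylation of 22 mammary samples was analysed. Per the labels the authors aligned ERRBS reads with Bismark to mm10. The deposited values are read counts (coverage, 10 or more) and the percent of C and of T reads at single cytosines, not normalized, with strands apart. Methylated and unmethylated counts were recovered as coverage times percent, rounded. Samples held 80114262 to 109502636 reads over positions.

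Regions (runs with gaps of at most 500 bp, or merged CDS segments) were assigned in the order promoter, coding exon, other exon, intron, intergenic, from 45756 curated transcripts of GRCm38.p6. A region's value is the mean percent of its positions. limma 3.58.1 in R 4.3.3 was fitted to M = log2((m + 1)/(100 - m + 1)) with the 8 groups as terms, and Benjamini-Hochberg adjustment over all regions. Samples were grouped by title, and DMCs were tested by logistic regression of the reads on strain. edgeR 4.0.16 was an alternative. limma, the permutation test and the DMC test were tried on simulated data, and edgeR was not. Other alternatives covered coverage, strands, positions, TSS distance, offset, scale, threshold and single samples. Replicates are separate mice, and same-group pairs had a chi-square per position between 1.95 and 3.78 on average, where reads alone give about 1, so none repeated another.

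Named exons are those called over the 4 stages with no overlap between strains and at least 5 positions (the 10 highest and 10 lowest, 1 per gene), the 2 exons with the largest absolute difference of each gene list, and the largest called change of each exon position. Members and lists were chosen with earlier results of these data known. Expression was not analysed here. A few named items, 1 of the 10 lowest exons among them, are not reported here.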

Additional observations from a re-analysis of the deposited data

Results flagged for a closer look

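Among 84 sets of 8 or 10 samples of a strain examined for a sample far from the others, 5 held one, and chance gives about 1 in 20. In the PyMT samples, the first minus internal gap of exons over 80% in controls was -0.32 points in PyMT week 8 replicate 2, against -1.20 to -0.80 points in the others. Notch4 exon 6 was at 66.8% in PyMT week 8 replicate 1 and at 46.7% to 56.8% in the others, with FVB samples at 57.0% to 81.9%. Hlx exon 4 was at 28.0% and Nr4a1 exon 1 at 46.1% in PyMT week 12 replicate 3, and the other PyMT samples reached at most 18.3% and 30.4%. Ddx54 exon 20 was at 23.02% in PyMT week 8 replicate 2 and at most at 12.7% in the others. In Hlx, Nr4a1 and Ddx54 these samples still lay below all FVB samples.

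The change differed between the carcinoma stages and the earlier stages by the interaction contrast in limma for 2 exons. The contrast was 24.0 points in Psd4 exon 14 (adjusted p = 0.0382) and 18.5 points in Arhgef4 exon 9 (adjusted p = 0.0488).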

How the results depend on the processing

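Of 771 recomputed values of the comparisons, 695 kept their direction, their side of the threshold or, for counts, stayed within 1.5 times the value given, and 0 called values turned their direction. Where exons needed at least 5 positions, fewer exons were tested (5430). Then 337 were called higher and 782 lower over the 4 stages, 205 and 559 at hyperplasia, 300 and 655 at adenoma/MIN, 360.0 higher and 809 lower at early carcinoma and 899 lower at late carcinoma, and the single minus internal gap was 0.45 points (p = 0.00963, exact permutation). A limit of 25 points gave 115 and 448 over the 4 stages, 60 and 359 at hyperplasia, 105 and 407 at adenoma/MIN, 147 and 535 at early carcinoma and 174 and 561 at late carcinoma. With it hyper- and hypo-DMCs numbered 1246 and 3642, 1646 and 3659, 2230.0 and 4701, and 2618 and 5040.0 at the successive stages.

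The contrast of carcinoma with earlier stages, 2 higher and 0 lower, was the least stable. The count higher was 1 with merged strands, 10 with at least 5 positions, 7 with an offset of 5 points, 13 on the percent scale, and 0 with the replicate block, edgeR or 25 points. The count lower was 2 at 20 reads, 5 with at least 5 positions, 1 with pooled reads, 8 with the offset, 16 on the percent scale and 2 with adjustment over exons alone. The cause was not tested. Leaving out 1 sample at a time gave 0 to 2 in each direction.

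Leaving out 1 sample at a time also gave 129 to 326 exons called higher and 510 to 917 lower at hyperplasia, 2323 to 3811 hyper-DMCs at hyperplasia, a single minus internal gap of -0.026 to 0.093 points, and -0.19 to 0.25 points for carcinoma minus earlier stages in PyMT. The low counts at hyperplasia came without PyMT week 6 replicate 1. Of 1542 recomputed PyMT minus FVB values of named exons, 1540 kept their direction and their side of the adjusted p limit. The 2 others were of Ptprc. Whether each difference also stayed above the limit in points is not read from this tally. The carcinoma minus earlier calls of Psd4 and Arhgef4 are not in this tally, and neither exon was called with the replicate block or edgeR.

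Same-numbered samples deviated with correlations of -0.08 to 0.06, so the numbers do not pair them. With the replicate block 154 exons were called higher and 528 lower at hyperplasia, and 549 and 1397 over the 4 stages.

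Depth per position was at least 10 reads, and an exon needed 3 positions. Whether depth limits some exons more than others was not tested. Only CpGs in ERRBS fragments were read, and the DMC test, with reads as units, does not carry the spread between mice.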
